A study of Mus musculus with 6 samples.

Results

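Egr1, Egr2, Egr3, Ier2, Ier3, Klf2, Klf4, Klf6 and Srf are genes of the serum response, the burst of transcription that follows when growth factors reach a resting cell, and their chromatin accessibility is described here in NIH3T3 cells that carry an active or an inactive ribozyme. Members were taken from the authors' table by gene symbol and position: every region annotated to 1 of the 9 genes, and every region without a gene symbol within 50 kb of the listed gene span. This gave 59 of 52957 regions, whose coordinates are on mm39. Of these, 18 were annotated to a member gene, and 8 of the 18 lay within 1000 bp of its start site and are called promoter regions. The other 41 had no gene symbol and are called nearby regions, although 7 of them carried the identifier of a gene without a symbol. All 9 genes had at least 1 region, and all but Egr3 had a promoter region.

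SRF is a transcription factor that binds a short DNA element called the CArG box. It works with ETS-family partners, which are switched on by growth factor signalling, and with the MRTF coactivators, which unpolymerised actin holds in the cytoplasm. EGR, IER and several KLF genes are immediate-early genes: they are induced without new protein synthesis, and the EGR and KLF products are zinc finger factors that pass the signal on to later genes.

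NIH3T3 is an immortalised fibroblast line from mouse embryos. Active libraries (n = 3) came from cells with a working T3H48 hammerhead ribozyme, a self-cleaving RNA, knocked into intron 3 of Actg1, which encodes cytoplasmic gamma-actin, and inactive libraries (n = 3) from cells with a disabled form of that ribozyme at the same site, so that both groups carry the insertion. ATAC-seq reads open chromatin by where the transposase Tn5 can cut it. Whether the 3 libraries are separate cultures or 1 clone is not stated, so p-values measure only the spread between libraries, and ribozyme activity and the history of each line cannot be told apart. The serum condition of the cultures is not given in the sources used here. A lower value can mean fewer cells with the region open or a less open region in each cell, and bulk libraries cannot tell these apart. Reads per region also depend on how many DNA copies a line holds, which was not tested. Accessibility below therefore means reads per region.

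The 3 active libraries summed to between 6477397 and 6548535 normalised reads over all regions, and the 3 inactive libraries to between 6433944 and 6527654. Before scaling, the active libraries were estimated at 3710000 to 6840000 reads in regions and the inactive libraries at 7330000 to 8960000. Promoter regions were present for 8 of 10 fibroblast markers, all but Pdgfra and Thy1, for 1 of 4 epithelial markers (Krt8), 1 of 3 neuronal markers (Tubb3), 1 of 3 endothelial markers (Kdr) and 0 of 3 leukocyte markers. Of 9 fibroblast marker promoter regions 2 were higher and 6 lower in the active line, where 21.0% and 37.6% of all promoters were (median -0.30 against -0.11), and 0 were higher and 7 lower in values centred as described below, where 12.0% and 24.6% were. Those of Krt8 (0.78) and Kdr (3.42, with 74 to 82 reads in active and 5 to 9 in inactive libraries) were higher and that of Tubb3 (-0.48) lower. The part of depth and of these markers in the results was not tested. Over all 51253 regions tested, 30.9% passed the threshold as higher and 29.2% as lower in the active line, 60.1% together, so that a call alone is common in these data (limma on log2(value + 1), adjusted p under 0.05, active over inactive). The changes were also regional, and each value below is therefore given beside the median log2 fold change of the other regions of its 10 Mb window, called the local shift. Centred values have that shift removed in each library.

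The promoter sequences of the genes that the results turn on are shown to let the places of known serum-response elements be seen, where there are any. RefSeq windows on GRCm38.p6, a different build from the mm39 of the ATAC regions, were held for 6 of the 9 genes, and 5 of them are given as the 250 bases before the start site, 5′ to 3′. Capitals mark matches, on either strand, to the CArG box, the EGR motif GCGNGGGCG, the GC box GGGCGG or the ETS motif CCGGAA, and run together where matches overlap. The windows are Srf at chr17:46556163-46556412 on the minus strand, Egr2 at chr10:67537619-67537868 on the plus strand, Klf2 at chr8:72318812-72319061 on the plus strand, Klf4 at chr4:55532476-55532725 on the minus strand and Klf6 at chr13:5861239-5861488 on the plus strand.
Srf: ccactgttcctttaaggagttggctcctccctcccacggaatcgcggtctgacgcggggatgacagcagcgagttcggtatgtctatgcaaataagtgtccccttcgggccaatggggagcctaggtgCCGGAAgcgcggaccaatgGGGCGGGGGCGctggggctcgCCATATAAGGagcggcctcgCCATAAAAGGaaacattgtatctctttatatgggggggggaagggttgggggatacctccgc
Egr2: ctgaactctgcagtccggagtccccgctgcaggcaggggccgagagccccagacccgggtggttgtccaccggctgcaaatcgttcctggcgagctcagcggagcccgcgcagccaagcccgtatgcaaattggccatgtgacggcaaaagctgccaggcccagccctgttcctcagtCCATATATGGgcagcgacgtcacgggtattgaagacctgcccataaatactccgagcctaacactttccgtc
Klf2: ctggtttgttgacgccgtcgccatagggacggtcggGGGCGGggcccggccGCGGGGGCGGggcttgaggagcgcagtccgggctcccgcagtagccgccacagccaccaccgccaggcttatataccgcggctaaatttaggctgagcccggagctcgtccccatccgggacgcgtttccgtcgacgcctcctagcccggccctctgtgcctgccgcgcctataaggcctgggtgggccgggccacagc
Klf4: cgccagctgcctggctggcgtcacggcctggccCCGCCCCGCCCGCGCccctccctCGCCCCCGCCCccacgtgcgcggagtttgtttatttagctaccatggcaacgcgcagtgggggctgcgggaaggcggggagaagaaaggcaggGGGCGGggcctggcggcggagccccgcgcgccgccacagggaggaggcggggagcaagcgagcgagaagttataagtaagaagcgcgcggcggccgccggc
Klf6: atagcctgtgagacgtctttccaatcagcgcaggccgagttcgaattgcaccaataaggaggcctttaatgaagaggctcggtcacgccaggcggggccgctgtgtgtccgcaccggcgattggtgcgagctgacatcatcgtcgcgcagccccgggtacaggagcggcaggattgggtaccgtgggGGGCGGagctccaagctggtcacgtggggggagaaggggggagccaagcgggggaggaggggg
Srf held 2 CArG boxes, CCATATAAGG and CCATAAAAGG, which began 82 and 62 bases before the start, and an ETS motif 122 bases before it. Egr2 held the CArG box CCATATATGG, 72 bases before this start. Another RefSeq start of Egr2 had a different one, CCTTTTTTGG, with 3 ETS motifs, of which a pair overlapped. Of the 5 RefSeq windows held for Egr2, that farthest upstream, at chr10:67535249-67535498, had 0 CArG boxes and 4 GC boxes. Which of these starts the listed start on mm39 matches was not tested. No CArG box lay in the windows of Klf2, Klf4, Klf6 or Ier3. Klf2 held 1 EGR motif, Klf4 held 2 and Srf held 1, of which those of Srf and Klf2 each overlapped a GC box, as did both of Klf4. Over all 32851 RefSeq windows of this length, 1.47% held a CArG box, 4.7% the EGR motif, 32.7% the GC box and 12.0% the ETS motif. These matches describe letters and show no binding.

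Taken by count, 20 of the 58 tested member regions were higher in active cells and 27 were lower, with a median log2 fold change of -0.18 against -0.02 over all regions tested. The higher share lay near the 30.9% of all regions, and the lower share was above the 29.2%. With centred values 16 were higher and 18 lower, near the 26.7% and 24.3% of all regions, and centred on 1 Mb either side 17 were higher and 16 lower, where the background was 26.2% and 23.6%. The groups did not overlap in 49 of the 58, against 62.3% of all regions. The 8 promoter regions all passed: 7 fell and 1, that of Klf6, rose, where 37.6% of 9650 promoter regions of named genes were lower and 21.0% higher. Their median log2 fold change was -0.33 against -0.11 for the 9650. The centred count was 4 lower and 0 higher, where the background was 24.6% and 12.0%, with a centred median of -0.19. Among the 40 nearby regions tested, 17 rose and 15 fell, against 34.0% higher and 26.7% lower of all regions without a gene symbol, and 6 rose and 3 fell by at least 2-fold, against 16.5% and 8.19%. Centred on the window, 14 of the 40 were higher and 8 lower, where 30.8% and 24.1% of such regions were.

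**Figure D1:**
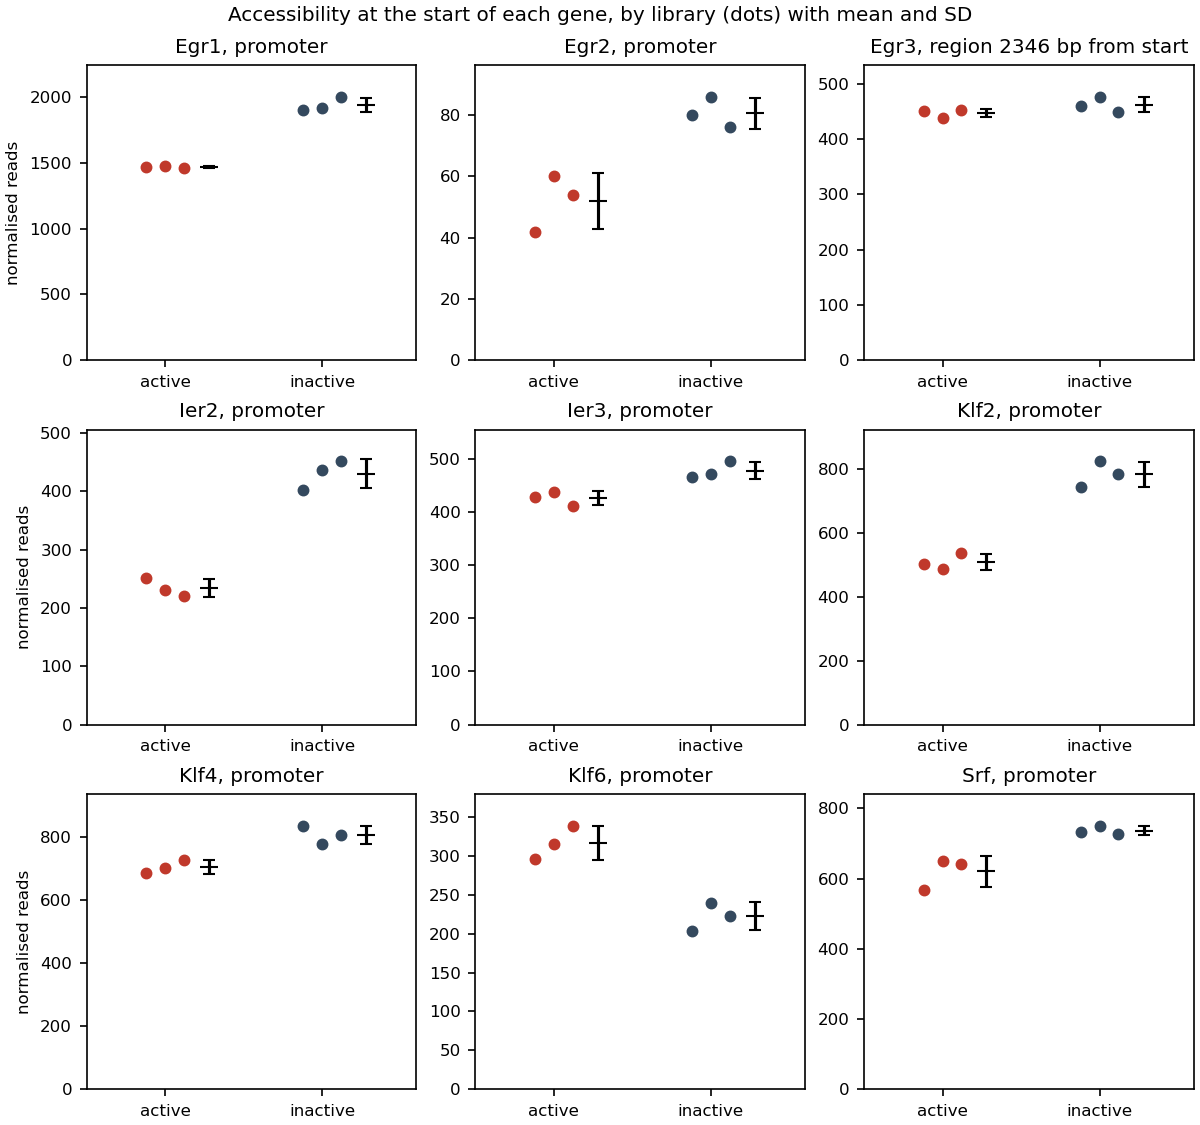
Normalised reads per library (y axis, from 0) at the promoter region of each gene, or for Egr3 at its only annotated region, in the 3 active and 3 inactive libraries, with the mean and SD in black. The active libraries lie below the inactive ones at 7 promoters, above them at Klf6, and overlap with them at Egr3.

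At Srf on chromosome 17, the promoter and a region inside the gene were both less accessible in the active line, with no shift in the 10 Mb window around them. The promoter region (46866583 to 46867562, 28 bp from the start site) had 568, 650 and 642 normalised reads in the active libraries, against 732, 750 and 728 in the inactive libraries. All active libraries lay below all inactive ones, and the promoter fell by 0.25 ± 0.05 (SE) on the log2 scale (adjusted p = 1.41e-04 by limma). The region 3066 bp downstream, at 46863745 to 46864324, had 435, 413 and 405 reads in the active libraries and 511, 561 and 567 in the inactive libraries. It fell by 0.39 ± 0.06 (adjusted p = 9.45e-07 by limma), and again the groups did not overlap.

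The local shift at Srf was 0.01, so that centring left both calls, at -0.27 for the promoter and -0.41 for the inner region. Within 1 Mb on either side the median was -0.17 instead, and centred on that flank the promoter stood at -0.13 and did not pass, while the inner region stood at -0.26 and did. Of 3 nearby regions, 1 rose, 18.5 kb upstream, with 87, 95 and 112 reads in active libraries, against 63, 66 and 80 in inactive ones (0.49 ± 0.14 on the log2 scale). A second, 30.3 kb downstream, fell (-0.52), but lost its call without active replicate 2 or 3 or without inactive replicate 2 or 3 (-0.43 to -0.47). The last was at 34.7 ± 4.93 reads in active libraries, against 26.3 ± 4.04 in inactive ones (SD, n = 3 each), and did not pass. The promoter call was lost in limma without trend and robust settings.

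Egr1, the founding member of the EGR zinc finger factors, had the most accessible promoter of the 8, and its whole locus on chromosome 18 was less accessible in the active line. The promoter region (34992839 to 34994690) had 1471, 1474 and 1462 reads in the active libraries, against 1901, 1914 and 2001 in the inactive libraries. It fell by 0.40 ± 0.04 on the log2 scale, 1.32-fold (adjusted p = 2.08e-12 by limma), with no overlap between groups. All 5 nearby regions fell too, with log2 fold changes of -0.37 to -1.67. The largest of these losses was 41.6 kb downstream, at 35034279 to 35034733, with 28, 25 and 27 reads in the active libraries and 80, 95 and 87 in inactive ones (-1.67 ± 0.17 on the log2 scale, adjusted p = 2.37e-11 by limma). Just past the 3′ end of the gene, a region at 34998287 to 34999553 had 225, 224 and 205 reads in the active libraries and 429, 448 and 425 in the inactive libraries, a 1.99-fold fall.

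The surroundings of Egr1 fell as well: its 10 Mb window had a local shift of -0.41 over 307 regions, and the median within 1 Mb was -0.55. Of those 307 regions, 57.7% were called lower. Centred on the window, the promoter was at -0.01 (adjusted p = 0.78 by limma) and no longer passed, and centred on the 1 Mb flank it turned to 0.19 and was called higher. The regions 9.65 kb upstream (-0.77), 6.04 kb downstream (-0.60) and 41.6 kb downstream (-1.29) stayed lower in the centred values. The promoter held 1.58 to 1.63 times the summed reads of the 5 nearby regions in the active libraries and 1.23 to 1.36 times in the inactive libraries.

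Egr2, known for its role in peripheral myelin, lies on chromosome 10, and both regions annotated to it were less accessible in the active line. The promoter region (67371924 to 67372225, 770 bp downstream of the listed start) was weak, with 42, 60 and 54 reads in the active libraries and 80, 86 and 76 in the inactive libraries. It fell by 0.64 ± 0.15 (adjusted p = 4.13e-04 by limma). The stronger region lay 2015 bp downstream of the listed start, at 67372829 to 67373811, with 290, 277 and 264 reads in the active libraries against 389, 382 and 367 in the inactive libraries (-0.45 ± 0.07, adjusted p = 5.99e-07 by limma). The groups did not overlap in either region. The label promoter follows the listed start alone. RefSeq gives several starts for Egr2, and whether the stronger region lies at another of them was not tested.

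With a local shift of -0.20 removed, both stayed lower, at -0.47 for the promoter and -0.29 for the stronger region, and they also did with the 1 Mb flank removed. The centred promoter did not pass without active replicate 1 (-0.33) or inactive replicate 2 (-0.42). A nearby region 47.8 kb upstream rose, with 74, 72 and 62 reads in the active libraries and 42, 35 and 55 in the inactive libraries (0.66 ± 0.17). A further one, 23.8 kb downstream, had 15, 14 and 12 reads in the active libraries and 4, 2 and 3 in the inactive libraries. Its mean was under the minimum of 10, and it is the only member region that was not tested.

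At Egr3, on chromosome 14, the gene's own region did not pass the test, while the upstream flank was more accessible in the active line. That region, 2346 bp upstream of the start site at 70311887 to 70312725, had 450, 438 and 452 reads in the active libraries and 460, 476 and 449 in the inactive libraries, which overlap. Its log2 fold change was -0.05 with a 95% confidence interval of -0.17 to 0.08. The 3 nearby regions farther upstream all rose, more so with distance: 0.64 at 9.31 kb, 1.14 at 20.1 kb and 2.37 at 48.8 kb.

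The farthest of these, at 70265655 to 70266051, had 46, 42 and 42 reads in the active libraries and 9, 6 and 8 in the inactive libraries (2.37 ± 0.27 SE, adjusted p = 7.09e-10 by limma). The strongest, at 70294215 to 70294900 and 258 bp from the start of a long noncoding RNA gene, had 333, 371 and 371 reads in the active libraries and 165, 156 and 165 in the inactive libraries. The region downstream of the gene, at 98.7 ± 12.9 reads in active libraries, against 102 ± 8.08 in inactive ones (SD, n = 3 each), did not pass. Centred on a local shift of 0.17, the upstream gains kept their calls (0.46, 0.96 and 2.19), the smallest of them not without active replicate 3 (0.41) or inactive replicate 1 (0.38), and the gene's own region was called lower (-0.23, adjusted p = 1.41e-03 by limma).

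Klf2, a factor best known in endothelial cells and lymphocytes, lost promoter accessibility in the active line. Its promoter region on chromosome 8 (73072473 to 73073509, 114 bp from the start site) had 502, 488 and 537 reads in the active libraries, against 744, 823 and 782 in the inactive libraries. It fell 1.54-fold, by 0.62 ± 0.06 on the log2 scale (adjusted p = 1.40e-12 by limma), and the groups did not overlap. The local shift was -0.14, and the centred change was -0.50. Nearby regions went both ways. One 12.4 kb downstream rose 2.49-fold, with 56, 39 and 57 reads in the active libraries and 19, 19 and 23 in the inactive libraries. The largest change was a fall 36.7 kb downstream, at 73109451 to 73109704, with 8, 5 and 5 reads in the active libraries and 14, 25 and 22 in the inactive libraries (-1.60 ± 0.36, adjusted p = 2.31e-04 by limma). Of the other 3, that at 46.5 kb upstream fell (-0.65), that at 7.97 kb upstream did not pass (-0.17), and that at 6.75 kb upstream fell (-0.81) but lost its call without active replicate 3 (-0.58) or inactive replicate 1 (-0.71) or 3 (-0.82). Centred on the window, the changes 12.4 kb (1.38) and 36.7 kb (-1.48) downstream kept their calls, and that 6.75 kb upstream did not pass (-0.69). The region 46.5 kb upstream stayed lower (-0.53), but not without inactive replicate 1 (-0.49) or 2 (-0.52).

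Klf4, one of the factors used to reprogram cells to pluripotency, changed little at its promoter and more around it. The promoter region on chromosome 4 (55532180 to 55533379) had 685, 703 and 729 reads in the active libraries and 836, 777 and 806 in the inactive libraries. The fall of 0.19 ± 0.05 passed (adjusted p = 1.22e-03 by limma) but was lost when the local shift of -0.12 was removed (-0.10) and in limma without trend and robust settings. On both sides of the promoter weaker regions annotated to the gene fell further. That 1393 bp upstream had 53, 35 and 37 reads in the active libraries and 90, 88 and 82 in the inactive libraries (-1.06 ± 0.16), and that 2058 bp downstream had 25, 34 and 34 in the active libraries and 60, 89 and 72 in the inactive libraries (-1.22 ± 0.18).

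At either end of the Klf4 locus a region with under 10 reads in every inactive library rose in the active line, 5.43-fold downstream and 5.50-fold upstream. The region 46.6 kb upstream, at 55578878 to 55579164, had 27, 51 and 32 reads in the active libraries and 4, 9 and 7 in the inactive libraries (2.30 ± 0.32, adjusted p = 5.42e-08 by limma). Its counterpart 43.7 kb downstream, at 55488644 to 55488893, had 32, 44 and 38 reads in the active libraries and 9, 7 and 5 in the inactive libraries (2.30 ± 0.29, adjusted p = 9.20e-09 by limma). Both kept their calls in centred values (2.39 and 2.40). The nearby region 6.14 kb downstream fell (-0.79) and that 9.09 kb upstream rose (0.29), but both calls were lost with several single libraries left out. The downstream value was -0.62 to -0.84 without active replicate 1 or 3 or inactive replicate 1 or 3, and the upstream value 0.26 to 0.33 without any library but active replicate 3. Centred on the window, the region 6.14 kb downstream did not pass (-0.70) and that 9.09 kb upstream was higher (0.38).

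Klf6, a widely expressed zinc finger factor, was the only gene of the 8 with a promoter region at which that region was more accessible in the active line. Its promoter region on chromosome 13 (5910981 to 5911751, 115 bp from the start site) had 296, 316 and 339 reads in the active libraries, against 204, 240 and 223 in the inactive libraries (0.51 ± 0.08, adjusted p = 6.43e-07 by limma). All 8 regions of the locus rose and none overlapped between groups, where 62.3% of all regions did not overlap. Of the other regions of its 10 Mb window, 55.6% were called higher. The local shift was also upward, 0.41 over 99 regions, and centred on it the promoter stood at 0.06 (adjusted p = 0.569 by limma) and did not pass.

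What stayed above the surroundings at Klf6 lay away from the promoter. A region inside the gene, 4867 bp from the start site, had 56, 53 and 67 reads in the active libraries and 18, 26 and 20 in inactive ones, a change of 1.43 ± 0.20 on the log2 scale and a centred value of 0.97. The largest change of all 58 regions was 31.4 kb downstream, at 5942689 to 5943049, with 58, 80 and 49 reads in the active libraries and 6, 9 and 5 in the inactive libraries. It rose 9.35-fold (3.05 ± 0.27 on the log2 scale, adjusted p = 7.69e-13 by limma). Its centred value was 2.60. Of the other 5 nearby regions, which rose by 0.55 to 0.90, 2 kept a call when centred on the window and 0 when centred on the 1 Mb flank. Of these 2 calls, that 23.9 kb upstream was lost without active replicate 1 or inactive replicate 1 or 2 (0.21 to 0.26), and that 10.1 kb downstream without active replicate 2 or inactive replicate 1 or 3 (0.24 to 0.38).

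Ier2, an immediate-early gene of cells stimulated by growth factors, had the largest promoter change. Its promoter region on chromosome 8 (85388947 to 85389642, 188 bp from the start site) had 251, 231 and 220 reads in the active libraries, against 402, 437 and 451 in the inactive libraries. It fell 1.84-fold, by 0.88 ± 0.07 on the log2 scale (adjusted p = 1.96e-13 by limma). The other regions annotated to the gene changed less. The region 1144 bp downstream, inside the gene, had 102, 102 and 107 reads in the active libraries and 108, 114 and 102 in the inactive libraries, which overlap (-0.06, 95% confidence interval -0.29 to 0.17). The region 1311 bp upstream had 250, 231 and 253 reads in the active libraries and 318, 322 and 321 in the inactive libraries and fell less (-0.39 ± 0.07).

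The last region annotated to Ier2, 2352 bp upstream, did not pass (-0.26). Of the 6 nearby regions, those 47.0 kb (-0.51) and 5.92 kb (-0.50) downstream fell and the other 4 did not pass, at -0.28 to 0.34. The local shift was -0.14, and the centred promoter stayed at -0.73 (adjusted p = 5.42e-11 by limma), or -0.61 against its 1 Mb flank, whose median was -0.28. Centred on the window, the regions 47.0 kb (-0.37) and 5.92 kb (-0.36) downstream and 1311 bp upstream (-0.25) stayed lower. Against the flank that 47.0 kb downstream did (-0.25), and those 5.92 kb downstream (-0.23) and 1311 bp upstream (-0.12) did not pass. The region 26.6 kb downstream was called higher there (0.25). The promoter held 0.275 to 0.317 times the summed reads of the 6 nearby regions in the active libraries and 0.448 to 0.478 times in the inactive libraries.

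Ier3, which encodes a stress-induced regulator of cell survival, was close to its surroundings at the promoter. The promoter region on chromosome 17 (36132245 to 36132923, 8 bp from the start site) had 428, 438 and 411 reads in the active libraries and 465, 472 and 495 in the inactive libraries. The fall of 0.16 ± 0.06 passed the threshold (adjusted p = 0.0195 by limma), was not past it without active or inactive replicate 3 (-0.14 each), with quantile normalization (-0.12) and in limma without trend and robust settings, and was -0.0041 once the local shift of -0.18 was removed. A region 1783 bp upstream moved the other way, with 212, 177 and 215 reads in the active libraries and 156, 157 and 128 in the inactive libraries (0.45 ± 0.10, centred 0.61). Farther upstream 2 neighbouring regions also rose. That at 36109903 to 36110159, 22.5 kb away, had 68, 62 and 62 reads in the active libraries and 34, 35 and 34 in the inactive libraries (0.88 ± 0.17, centred 1.04), and that at 26.4 kb rose by 0.76 but lost its call without active replicate 3 (0.54). The other 4 nearby regions lay at -0.21 to -0.41, 3 of them past the threshold and 0 of them after centring. Without active replicate 3 the region 44.5 kb upstream did not pass (-0.15).

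**Figure D2:**
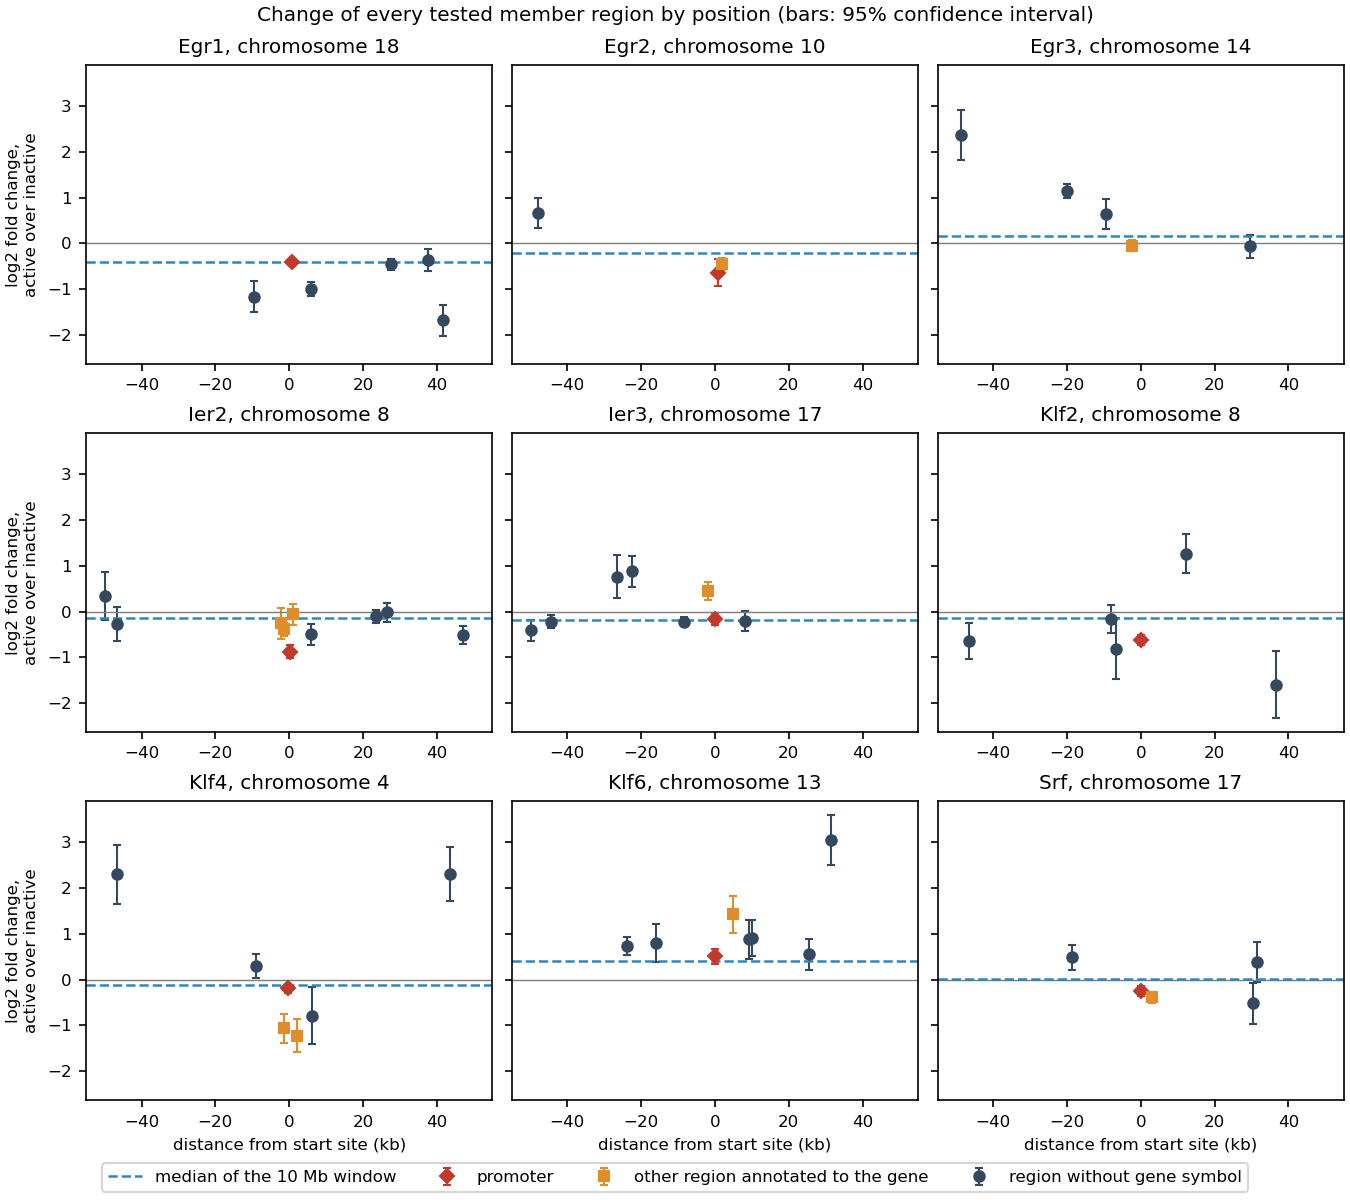
Log2 fold change of the 58 tested member regions, active over inactive (y axis), by distance from the start site of their gene in kb (x axis, positive downstream), with 95% confidence intervals. The blue dashed line is the median of the other regions in the 10 Mb window, from -0.41 at Egr1 to 0.41 at Klf6, and the regions of Egr1 and Klf6 lie below and above 0 together with that line.

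Removing the local shift separated the promoters. Ier2 (-0.73), Klf2 (-0.50), Egr2 (-0.47) and Srf (-0.27) stayed lower than their surroundings, whereas Egr1 (-0.01), Ier3 (-0.0041), Klf4 (-0.10) and Klf6 (0.06) did not pass. The calls of Ier2, Klf2 and Egr2 also held against the 1 Mb flank (-0.61, -0.50 and -0.37), that of Srf did not (-0.13), and Klf4 was called lower there (-0.17). Over all member regions, 33 of 47 calls stood in the same direction after centring on the window, 14 did not pass and 0 turned to a call in the opposite direction. Of all regions tested, 60.1% were called before this centring and 51.0% after it. The share of those calls that was kept was not computed.

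**Figure D3:**
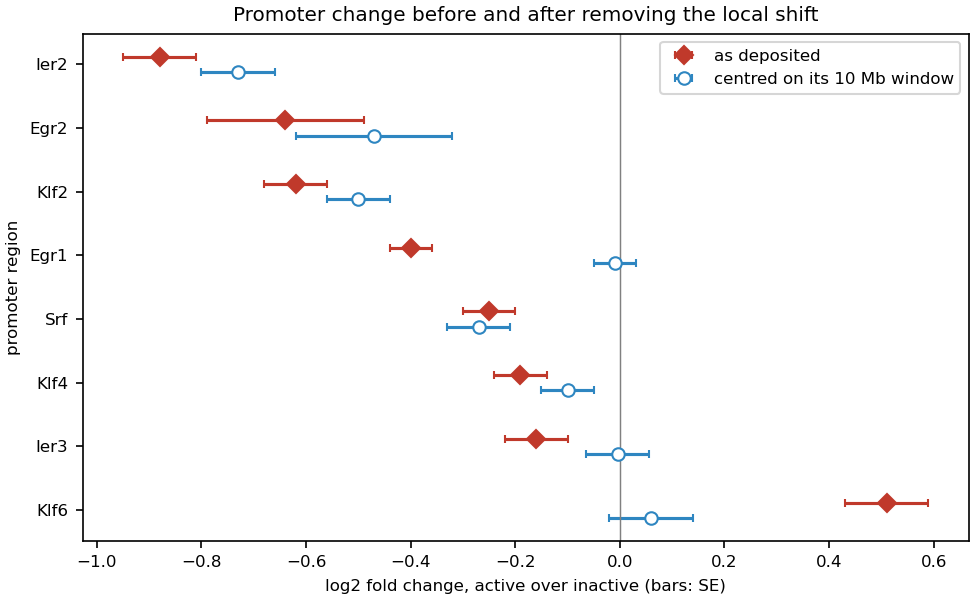
Log2 fold change of the 8 promoter regions, active over inactive, with SE, as deposited (red diamonds) and after subtracting the shift of the 10 Mb window (open blue circles). Egr1 moves from -0.40 to -0.01 and Klf6 from 0.51 to 0.06, while Ier2, Egr2, Klf2 and Srf stay below 0.

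Divided by the summed reads of the nearby regions without a gene symbol, a ratio in which any shift common to the locus cancels, promoter reads were lower in the active libraries at 6 of 8 genes, but at 3 of these the difference depended on which regions they were set against. The log2 difference, active minus inactive, was -1.49 at Egr2 (2 nearby regions), -0.89 at Klf4, -0.66 at Ier2, -0.52 at Srf, -0.47 at Klf2 and -0.41 at Klf6. It was 0.30 at Egr1 and 0.01 at Ier3. Over all regions tested, promoters of named genes also had a lower median log2 fold change (-0.11) than regions without a gene symbol (0.04). The ratio was not computed for other genes, so no background share stands beside these counts. Groups did not overlap at any gene but Ier3, and the exact two-sided permutation test gave p = 0.1 for each of the 7, the smallest that 3 against 3 libraries can give (0.114 adjusted over 8 genes by Benjamini-Hochberg), and p = 0.7 for Ier3. Set against every region within 50 kb, those of other genes included, the difference was -0.01 at Klf2 (exact p = 0.8), -0.09 at Klf4 (exact p = 0.5) and -0.01 at Srf (exact p = 0.9). With the same regions it was -0.64 at Ier2, -0.46 at Klf6 and -0.38 at Egr2, each again with the smallest exact p of 0.1. Set against the nearby regions within 25 kb it was -2.89 at Egr2, -0.81 at Klf2 and -0.32 at Klf4, so that the size at these genes depends on the regions chosen. At Egr2 that value rests on the region 23.8 kb downstream that was too low to test, with 4, 2 and 3 reads in the inactive libraries.

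At Klf6 the promoter rose and the nearby regions rose more: the ratio was 0.584, 0.615 and 0.731 in the active libraries and 0.794, 0.876 and 0.881 in the inactive libraries. At Klf4 it was 4.08, 3.41 and 4.29 in the active libraries and 7.81, 7.13 and 6.77 in the inactive libraries.

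**Figure D4:**
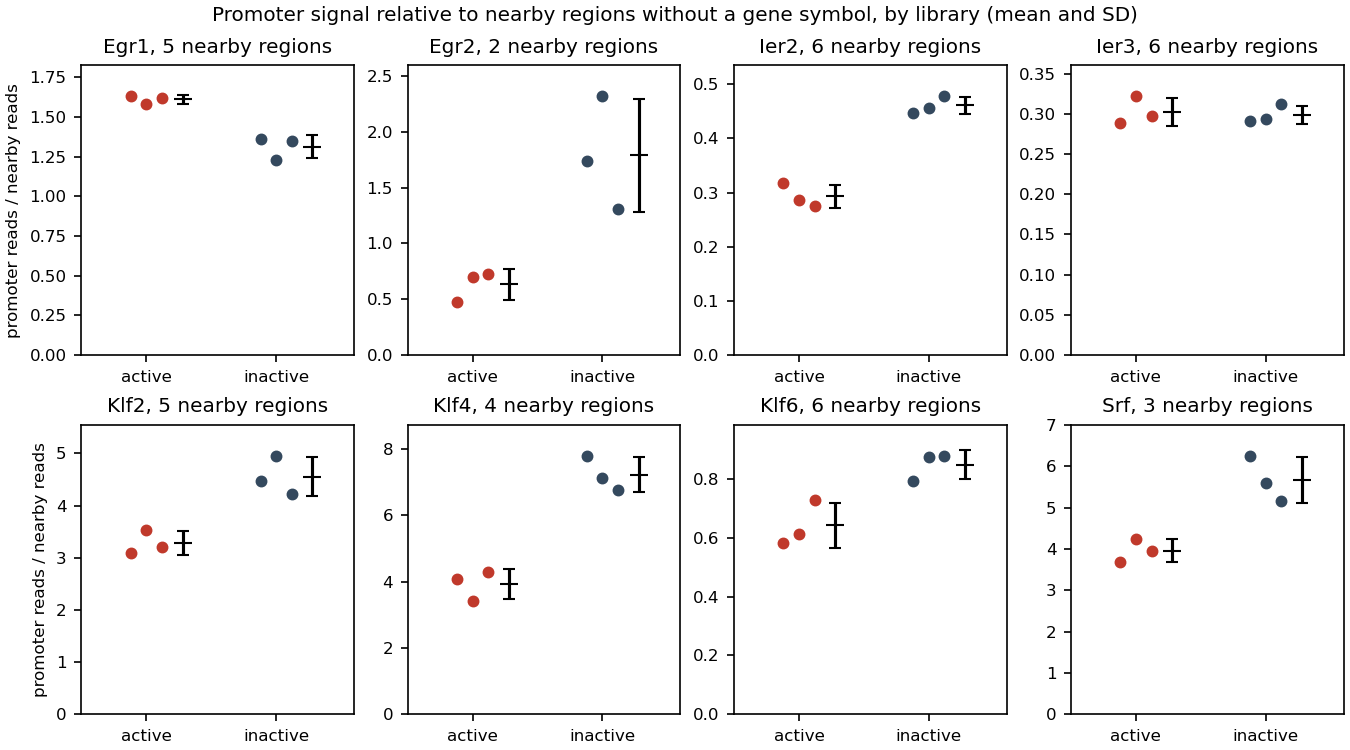
Reads at the promoter region divided by the summed reads of the nearby regions without a gene symbol (y axis, from 0), in each active and inactive library, with the mean and SD in black. Against these regions the active libraries lie below the inactive ones at 6 genes, above them at Egr1 (1.58 to 1.63 against 1.23 to 1.36) and overlap with them at Ier3.

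Over all regions of a locus, the log2 ratio of the summed reads, active over inactive, was 0.79 at Klf6 (859, 883 and 870 reads in the active libraries, 479, 540 and 496 in the inactive libraries) and 0.39 at Egr3. It was -0.52 at Egr1 and Klf2, -0.37 at Ier2, -0.30 at Egr2, -0.24 at Srf, -0.17 at Klf4 and -0.12 at Ier3. The exact permutation test gave its smallest p of 0.1 for all 9 genes (adjusted p = 0.1). With the local shift removed the ratio was 0.33 at Klf6, 0.20 at Egr3, -0.40 at Klf2, -0.26 at Srf, -0.23 at Ier2, -0.14 at Egr1, -0.13 at Egr2 and -0.08 at Klf4. It stood at 0.04 at Ier3, where the exact p was 0.5.

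Per length, these promoters were mostly among the more accessible ones. In reads per 100 bp of region, averaged over the 6 libraries, 99.0% of the 9650 promoter regions lay below Egr1, 95.2% below Srf, 94.4% below Ier3, 93.3% below Klf4, 93.0% below Klf2, 83.8% below Ier2, 66.7% below Klf6 and 37.4% below Egr2. The stronger Egr2 region, 2015 bp from the listed start, had 63.8% of the promoter regions below it. Among the member promoters Egr1 led in both lines, with 78.9 to 79.6 reads per 100 bp in the active libraries and 103 to 108 in the inactive libraries. In the active line Ier3, Srf and Klf4 followed with overlapping ranges between 57.1 and 66.3, then Klf2 (47.1 to 51.8), Klf6 (38.4 to 44.0), Ier2 (31.6 to 36.1) and Egr2 (13.9 to 19.9), none of which overlapped its neighbour. In the inactive line Klf2 (71.7 to 79.4) and Srf (74.3 to 76.5) came after Egr1 and overlapped. Ier3 (68.5 to 72.9) lay below Srf without overlap but overlapped Klf2, and Klf4 (64.8 to 69.7) and Ier2 (57.8 to 64.8) followed, each overlapping or touching the one above it, and then Klf6 (26.5 to 31.1) and Egr2 (25.2 to 28.5), which overlapped. Ier2 stood above Klf6 in the inactive line and below it in the active line.

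The promoter of Ier2, with the largest change, was matched most closely over the 6 libraries by those of Gm38431 and Swsap1 on chromosome 9 and Rpl41 on chromosome 10, with root mean square differences of 0.110, 0.110 and 0.114 in log2(value + 1), among 9642 promoter regions compared. Swsap1 had 258, 223 and 254 reads in the active libraries and 443, 450 and 473 in the inactive libraries.

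Other genes of the serum response were read from lists chosen with earlier results of these data known. Of 34 other immediate-early genes, 31 had a region, and 4 of their 54 tested regions were higher in the active line and 25 lower, where 30.9% and 29.2% of all regions were, with a median log2 fold change of -0.15 against -0.02 over all regions. At their 28 promoter regions 3 were higher and 12 lower, where 21.0% and 37.6% of all promoters were, and the median of -0.10 was close to the -0.11 of all promoters. Centred on the window, 3 of the 28 were higher and 15 lower, where 12.0% and 24.6% of all promoters were. Their centred median was -0.16, against -0.06 for all promoters. Among those called, the lowest were Fosb, an AP-1 subunit, at 139, 129 and 145 reads in the active libraries and 185, 227 and 207 in the inactive libraries (-0.58, centred -0.39), and Nr4a2, an orphan nuclear receptor (-0.46, centred -0.26). The highest were Rhob, a small GTPase of the actin skeleton (0.30), and Fos, the prototype immediate-early gene, at 559, 541 and 542 reads in the active libraries and 444, 422 and 501 in the inactive libraries (0.27). Both lie on chromosome 12, and centred on their windows both were lower (-0.27 and -0.22).

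Of the 15 other EGR and KLF genes, 12 had a region, and 6 of 18 regions were higher and 6 lower, near the 30.9% and 29.2% of all regions. Centred on the window, 3 of the 18 were higher and 8 lower, where 26.7% and 24.3% of all regions were. Klf11 (0.69) and Klf10 (0.36), both repressors induced by TGF-beta, were the highest promoters among those called, and Klf16 (-0.27) and Klf9 (-0.27) the lowest. Centred on its window Klf11 turned to -0.19 and was called lower, while Klf10 stayed higher (0.14). Among the partners of SRF and the corepressors of EGR factors, 2 of 12 regions were higher and 3 lower, both shares below the 30.9% and 29.2% of all regions. The promoter of the coactivator gene Mrtfa was higher (0.23) with 572, 560 and 564 reads in the active libraries and 457, 507 and 486 in the inactive libraries, though not when centred (-0.13), and those of the ETS partners Elk3 (-0.42) and Elk4 (-0.15) were lower, Elk4 with overlapping groups. Without active replicate 3 or inactive replicate 3, 1 of the 12 was lower.

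Of 16 cytoskeletal targets of MRTF and SRF, 15 had a region, and 7 of 23 regions were higher and 8 lower, near the 30.9% and 29.2% of all regions, with a median of -0.06. Both promoter regions of Tagln, a smooth muscle actin-binding protein, fell (-0.54 and -0.45), and those of Zyx, a focal adhesion protein (0.40), and Fhl1, a LIM-domain protein (0.29), rose. Centred on its window, Fhl1 kept its call (0.35), while Tagln (0.05 and 0.15) and Zyx (-0.07) did not pass.

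At the 50 kb limit, the last region taken in was 49684 bp from Ier2, with 19, 32 and 22 reads in the active libraries and 17, 21 and 18 in the inactive libraries. The first region left out was 51626 bp from Egr2, with 69, 83 and 72 reads in the active libraries and 88, 87 and 87 in the inactive libraries.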

How the data were processed

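Reads per accessible region were measured by ATAC-seq in 6 libraries, 3 per knock-in group by their titles. The values are a score: whole numbers that the authors deposited, read from the values as reads divided by a size factor per library and rounded. The submitters' processing notes name mm39 as the build and list DESeq2 1.36.0, featureCounts, Picard 3.1.1, STAR 2.7.11a and Trimmomatic 0.39. The sources used here give neither a peak caller nor a Tn5 shift. Unscaled depth was estimated from the whole numbers that rounding skips or overfills, and reads were not recovered, so no count model was used.

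On the log2(value + 1) scale, limma 3.58.1 (R 4.3.3, trend and robust settings, group as the only term) was fitted to 51253 regions whose mean reached 10, with Benjamini-Hochberg adjustment over all of them and a threshold of 0.05. Fold changes on this scale understate changes of low regions, and fold values are ratios of group means. Centring subtracted each library's median deviation over the non-member regions of the fixed 10 Mb window. Locus sums and ratios were tested by exact permutation over libraries. The fit was tested on simulated data. Tables were read with Python 3.11.15, pandas 2.3.3 and numpy 2.4.6, and plots drawn with matplotlib 3.10.9. Members and lists were chosen with earlier results of these data known. Per-library values are given for every promoter and for the largest change among the nearby regions of each gene, with others chosen after their values were seen. From each list the 2 highest and 2 lowest promoter regions were named among those past the threshold and at or above the median level, and for the member promoter with the largest change the 3 most similar promoters. Alternatives were other pseudocounts, filters, scalings and centrings, limma without trend, a replicate block and leaving out each library.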

Additional observations from a re-analysis of the deposited data

How the results depend on the processing

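Of 47 member regions called, 37 were called the same way in every one of the 14 alternatives without removal of the regional shift that tested them (the minimum mean of 30 left 39 of the 47 in the test), and 7 lost it when 1 library was left out. Without single libraries the count of member regions was 19 higher and 22 to 26 lower, and that of promoters 1 higher and 6 to 7 lower. Of all 51253 regions, 14585 to 15556 were then higher and 12774 to 14689 lower, where all 6 libraries gave 15827 and 14957. Promoters called lower numbered 4 in limma without trend and robust settings, and 4 when centred on the 10 Mb window with or without the replicate block. Promoters called higher numbered 0 when centred on the window, with or without the block, or on the chromosome. Centred on the window, 3 of 18 regions of other EGR and KLF genes were higher and 8 lower, and 6 of 54 of other immediate-early genes were higher and 27 lower. SRF partners had 1 of 12 higher and 2 lower, and cytoskeletal targets 4 of 23 higher and 5 lower. Of all regions, 26.7% were higher and 24.3% lower. With the block added, 7 regions of other EGR and KLF genes were lower and 5 of other immediate-early genes higher, and the other counts stayed. Centring on the chromosome gave 3 higher and 5 lower among other EGR and KLF genes, and 4 higher and 30 lower among other immediate-early genes. It gave 1 higher and 2 lower among SRF partners, and 3 higher and 5 lower among cytoskeletal targets. Among all regions, chromosome centring called more in each direction than the 26.7% higher and 24.3% lower with window centring. SRF partners had 1 higher in limma without trend and robust settings and 1 to 3 lower without single libraries.

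Among called regions, centring on 1 Mb either side changed the direction of the promoters of Egr1 (0.19), Ier3 (0.06) and Klf6 (-0.01) and of the Egr1 regions 27.6 kb (0.11) and 37.6 kb (0.19) downstream, of which that of the Egr1 promoter was a call. Direction also changed for the Egr1 region 37.6 kb downstream centred on the window, with or without the block (0.02), the Ier3 locus sum centred on the window (0.04), and the Ier3 ratio of promoter to nearby regions, at -0.003 with every region within 50 kb and -0.03 to 0.05 without single libraries. The causes were not tested. Deviations of same-numbered active and inactive libraries correlated at -0.016 to 0.001 over regions, and those of unlike-numbered ones at -0.009 to 0.014. Whether the libraries were prepared in pairs cannot be read from these values. The replicate block ended 1 member call, 9.09 kb upstream of Klf4 (0.29). Active libraries were shallower, and member regions under about 20 reads carry the most counting error.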
